A study of Homo sapiens with 16 samples.

Results

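The genes described here encode the relay that carries the tumour necrosis factor (TNF) signal from its receptors to the kinases that activate NF-kB, JNK and p38. The list has 35 members, chosen by symbol: TNF receptors and their adaptors, the linear ubiquitin ligase, ubiquitin-conjugating enzymes, an SCF ubiquitin ligase, the TAK1 complex, the IKK complex with its upstream kinases, and the stress-activated MAPK cascade. All 35 symbols were among the 28502 listed, and 33 had a mean of at least 1 FPKM over the libraries, the level required for testing, as did 11845 loci in all (a locus is a gene symbol, or several symbols listed with identical values). The cells were HCT116, a line established from a human colorectal carcinoma, and poly(A) RNA was sequenced from 1 library in each of 6 conditions. Cells carried a control siRNA preparation labelled NC, one against EZH1 (siEZH1) or one against UXT (siUXT), and each was given phosphate-buffered saline (PBS) or TNF. The labels do not say what NC stands for, the dose and duration of TNF, or whether the PBS and TNF library of 1 siRNA came from 1 transfection. No group had a replicate, so all tests rest on the additive model over the 6 libraries. Its standard errors and p values measure how the TNF difference varies between siRNA groups, with pooling over loci by limma. They do not measure a spread between replicates. The word transfection below names the siRNA group. In such bulk RNA, fewer cells with a transcript and less transcript per cell cannot be told apart.

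TNF binding brings TRADD, RIPK1 and TRAF2 to the receptor TNFR1, where ubiquitin chains are built. The chains hold the TAK1 kinase complex and the IKK complex together. IKK then marks the inhibitor IkB for destruction by the SCF ligase that contains the beta-TrCP protein, which frees NF-kB, while TAK1 and related kinases start the MKK to JNK and p38 cascades.

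The control measurements were as follows. EZH1 encodes a histone H3 lysine 27 methyltransferase. With PBS and TNF, its FPKM values were 5.45 and 5.12 for NC, 4.05 and 4.14 for siEZH1, and 6.27 and 6.23 for siUXT. EZH1 RNA was thus only slightly lower after siEZH1, and siUXT, directed against another gene, also differed from NC. With 1 library per condition, these values cannot settle how far EZH1 was reduced, so siEZH1 below names the siRNA given. UXT, a prefoldin-like protein gene, was at 62.2 and 59.6 FPKM in NC and at 27.7 and 24.6 FPKM in the siUXT libraries. NFKBIA, an NF-kB target, was between 22.8 and 28.2 FPKM in the 3 PBS libraries and between 261 and 379 FPKM in the 3 TNF libraries. The 5 epithelial markers (EPCAM, CDH1, KRT8, KRT18 and KRT19) summed to between 1679 and 2459 FPKM, and 8 markers of leukocytes, fibroblasts and endothelium to between 0.258 and 0.801 FPKM, with PTPRC, CD3E and CD14 listed at 0 in all libraries. The siUXT PBS library was most often at an extreme. It was the lowest of the 6 libraries for 30.6% of tested loci and the highest for 33.7%. The siEZH1 PBS library came next, at 27% and 25.2%. Of the 33 tested members, siUXT PBS was the lowest for 11 and the highest for 10, and siEZH1 PBS for 11 and 9. Against NC PBS, 16.4% of loci were at least 1.5-fold lower in siUXT PBS and 4.11% higher. For siEZH1 PBS these shares were 5.15% and 2.13%. Relative to the NC PBS library, the NC TNF and siEZH1 TNF libraries had 0.719 and 0.720 of the depth, read from the steps among low values, and the others 0.949 to 1.02.

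The sequences before the start sites of MAP3K8, TRAF3 and MAP2K3 are shown because these members had the highest TNF responses in the same direction in every transfection. They are the 250 bases before a RefSeq start site in build GRCh38.p14, 5′ to 3′ on the strand of the gene, with matches to the 10-position NF-kB consensus in capitals on either strand. MAP3K8 lies at chr10:30433771-30434020 (plus strand), TRAF3 at chr14:102777199-102777448 (plus strand) and MAP2K3 at chr17:21284461-21284710 (plus strand).
MAP3K8: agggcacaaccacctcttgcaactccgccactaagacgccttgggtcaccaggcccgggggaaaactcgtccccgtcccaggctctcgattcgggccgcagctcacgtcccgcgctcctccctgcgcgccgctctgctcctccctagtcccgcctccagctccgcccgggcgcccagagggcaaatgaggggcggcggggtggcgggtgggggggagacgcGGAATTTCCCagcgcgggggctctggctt
TRAF3: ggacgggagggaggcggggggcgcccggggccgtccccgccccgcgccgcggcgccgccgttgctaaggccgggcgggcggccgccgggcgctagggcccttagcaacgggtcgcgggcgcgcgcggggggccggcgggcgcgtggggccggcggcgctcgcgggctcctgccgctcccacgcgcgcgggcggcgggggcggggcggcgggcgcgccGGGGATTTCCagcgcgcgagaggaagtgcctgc
MAP2K3: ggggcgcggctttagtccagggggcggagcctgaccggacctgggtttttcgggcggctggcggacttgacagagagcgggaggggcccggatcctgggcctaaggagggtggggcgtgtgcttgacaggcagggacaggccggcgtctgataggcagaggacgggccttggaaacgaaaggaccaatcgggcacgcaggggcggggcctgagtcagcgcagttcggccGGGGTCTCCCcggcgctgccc

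The match began 29 bases before the start site of MAP3K8, 33 before that of TRAF3 and 21 before that of MAP2K3. All 3 RefSeq windows of MAP3K8 held the consensus, as did the single window of TRAF3. The MAP3K8 windows that start at 30433771 and 30433934 overlap and hold the same match. Of the 57 windows of 300 bases (250 before to 50 after a start site) for the 31 members with one, 11 held it, from 7 genes; the share over all 35116 windows was 11.3%. The other genes with it were CUL1, MAPK14, TAB2 and UBE2D3, and the window of TRAF2 had no match. The consensus search was added after the sequences were seen. A narrower 9-letter form, GGGANNTTC, was in 8 of the 57 windows against 4.18% of all windows. It was found in windows of MAP3K8 but not of TRAF3 or MAP2K3. The AP-1 letters TGANTCA were in 4 of the 57 windows, from MAP3K8, MAP2K3 and IKBKG, against 7.71% of all windows. The GC box letters GGGCGG were in 38 of the 57, against 45% of all. The motifs were searched on both strands and can overlap, the consensus sharing bases with GGGANNTTC. Windows of the same gene can overlap too, so a single site can count in more than 1 window. This was so for the consensus in MAP3K8 and UBE2D3 and for GGGANNTTC in MAP3K8 and IKBKG. The shares over all windows were counted in the same way. A match is a description of the letters and not of binding.

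Nearly all of the relay was expressed before TNF was added. FPKM values are scaled by transcript length, so levels can be set beside each other. The highest mean levels over the 6 libraries were those of the ubiquitin machinery: UBE2D3, UBE2V1, SKP1 and UBE2N were at 120, 102, 89.9 and 68.8 FPKM. The lowest tested members were TRAF6 at 2.04, TRAF5 at 2.43, TAB3 at 2.96 and MAP3K8 at 3.49 FPKM. The median of the 33 was 14.5 FPKM, against 10.2 FPKM over all tested loci.

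Both members under 1 FPKM have a close relative that was well expressed. TNFRSF1B, which encodes TNFR2, was listed between 0.15 and 0.376 FPKM, while TNFRSF1A, which encodes the main TNF receptor TNFR1, was between 27.7 and 44.9 FPKM. MAP2K6, one of the p38-activating MKK genes, was listed at 0 in 3 libraries and at most at 0.202 FPKM. Its relative MAP2K3 was between 37.5 and 73.9 FPKM.

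**Figure D1:**
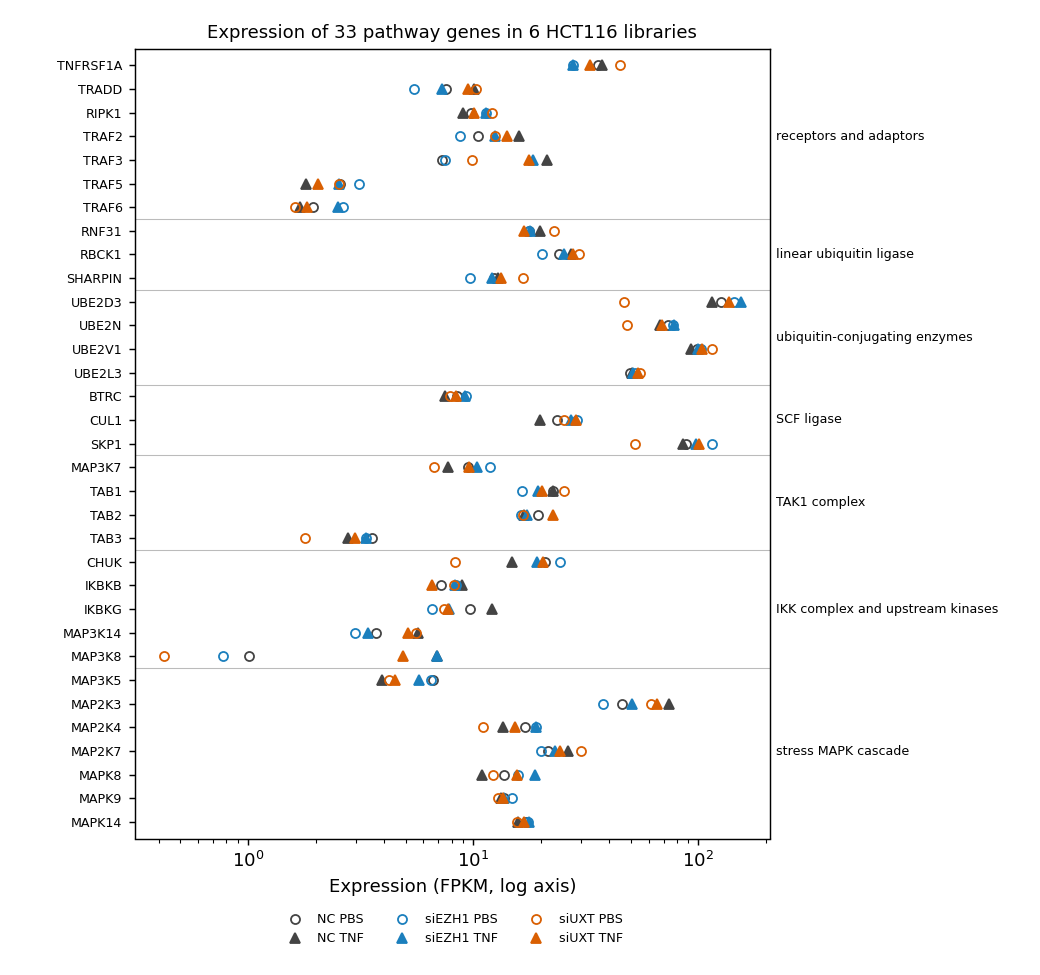
Expression of the 33 tested members (rows, grouped by role) in FPKM on a log axis, 1 point per library; open circles are PBS and filled triangles TNF, coloured by transfection. The points of most members lie close together, while MAP3K8 spans 0.423 to 6.93 FPKM and UBE2D3 and CHUK each have a single low point, in siUXT PBS.

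Over all 6 libraries, a single gene of the relay passed the test for TNF: MAP3K8. It encodes TPL2, the kinase that links IKK activity to the MEK to ERK cascade. MAP3K8 was at 1.00 FPKM with PBS and 6.93 with TNF in NC, at 0.773 and 6.91 in siEZH1, and at 0.423 and 4.87 in siUXT. The TNF values all lay above the PBS values, by 6.90, 8.95 and 11.5 times in NC, siEZH1 and siUXT. On the log2(FPKM + 1) scale, which understates changes of genes with low FPKM, the mean difference was 2.06 ± 0.09 (SD, n = 3 transfections). This SD, like that of TRAF3 below, is a spread between the siRNA groups, with 1 library pair each, and not between replicates. Its mean reached the 1 FPKM needed for testing only through the TNF libraries. Limma's additive model of transfection and treatment, with the filter, gave MAP3K8 a standard error of 0.16 and a Benjamini-Hochberg adjusted p of 0.0054 over all tested loci. Over the limma alternatives that kept all 6 libraries and tested MAP3K8, the adjusted p ranged from 0.0027 to 0.042, the value without the filter. With each library left out in turn, the change lay between 2.01 and 2.10. Without an NC or siEZH1 library, limma set the spread from expression level alone, so p values of those fits are not given here. With siUXT PBS left out, the change was 2.07 with an adjusted p of 0.0011 in limma. MAP3K8 was the only member called in limma over all 6 libraries, 1 of 33 higher and 0 lower, where 0.405% of all tested loci were called higher, 0.00844% lower and 0.414% either way.

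TRAF3, an adaptor ligase that restrains the NF-kB-inducing kinase NIK, had the next highest TNF values without passing the test. TRAF3 was at 7.26 and 21.3 FPKM with PBS and TNF in NC, at 7.47 and 18.4 in siEZH1, and at 9.90 and 17.6 in siUXT. Its 3 TNF values lay above its 3 PBS values. The mean log2 difference of TRAF3 was 1.13 ± 0.33 (SD, n = 3 transfections), with a limma Benjamini-Hochberg adjusted p of 0.11 (0.0019 to 0.30 over the alternatives). By transfection the TRAF3 difference was 1.43 for NC, 1.20 for siEZH1 and 0.77 for siUXT. Without the siUXT PBS library, limma called TRAF3, at 1.31 with a Benjamini-Hochberg adjusted p of 0.0019. The values of TRAF3 are shared with a further symbol that names a sequence record, so they cannot be given to TRAF3 alone.

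TRAF2 and MAP2K3 had smaller differences in the same direction. TRAF2, the adaptor that recruits the IAP ubiquitin ligases to the receptor, was at 10.5 and 15.9 FPKM with PBS and TNF in NC, at 8.71 and 12.4 in siEZH1, and at 12.5 and 14.1 in siUXT. MAP2K3, which encodes the p38 activator MKK3, was at 45.6 and 73.9 FPKM in NC, at 37.5 and 50.7 in siEZH1, and at 61.4 and 65.3 in siUXT. For both, the TNF and PBS values overlapped across transfections and the siUXT pair differed least. Both had a log2 difference of 0.40 and a limma Benjamini-Hochberg adjusted p of 0.999. Without siUXT PBS, limma called 4 members higher (MAP3K8, TRAF3, TRAF2 and MAP2K3) and 0 lower, in a fit that called 2.47% of all tested loci higher, 0.295% lower and 2.77% either way. There MAP2K3 was at 0.56 and TRAF2 at 0.52, with limma Benjamini-Hochberg adjusted p values of 0.027 and 0.048. With NC PBS or NC TNF left out instead, the MAP2K3 difference was 0.26. With siUXT TNF left out instead, limma called the same 4 members higher and 0 lower, beside 2.48% of loci higher, 0.287% lower and 2.77% either way. The siUXT pair does not enter the TNF estimate of either fit, and each leaves 1 degree of freedom for the spread. At an unadjusted p under 0.05 in limma, the fit over all 6 libraries had the same 4 members of 33, beside 3.96% of all loci.

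**Figure D2:**
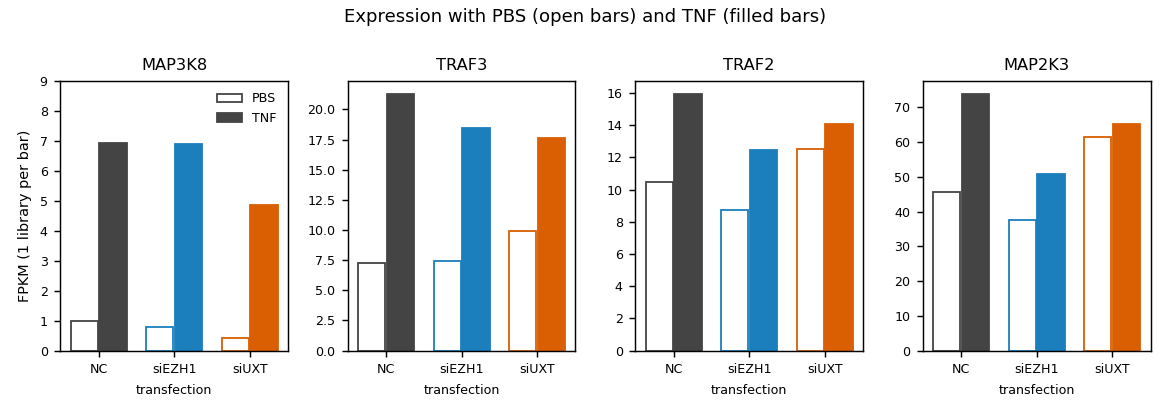
FPKM of MAP3K8, TRAF3, TRAF2 and MAP2K3 by transfection, 1 library per bar, with PBS (open) and TNF (filled); each axis starts at 0. MAP3K8 goes from at most 1.00 to at least 4.87 FPKM in every transfection, and the siUXT bars of TRAF2 and MAP2K3 are nearly level.

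Of the other tested receptor and adaptor genes, TRAF5 alone had a TNF difference of 1 sign in all 3 pairs. The receptor gene TNFRSF1A was at 35.8 and 37.2 FPKM with PBS and TNF in NC, at 27.7 in both siEZH1 libraries, and at 44.9 and 33 in siUXT. TRADD, the first adaptor on TNFR1, was at 7.59 and 10.0 FPKM in NC, at 5.46 and 7.24 in siEZH1, and at 10.3 and 9.48 in siUXT. RIPK1, the kinase and ubiquitin scaffold of the receptor complex, was at 9.74 and 8.97 FPKM in NC, at 11.4 in both siEZH1 libraries, and at 12.1 and 10.0 in siUXT. The siEZH1 values of TNFRSF1A and TRADD with PBS were below both NC values, while the treatments overlapped. TRAF5, an adaptor related to TRAF2, was at 2.55 and 1.81 FPKM in NC, at 3.11 and 2.53 in siEZH1, and at 2.54 and 2.04 in siUXT. It was lower with TNF in each pair, at 0.707, 0.813 and 0.804 of its PBS value, with a limma Benjamini-Hochberg adjusted p of 0.999. TRAF6, the adaptor ligase better known from interleukin-1 and Toll-like receptor signalling, lay between 1.61 and 2.63 FPKM.

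The IKK subunits showed no common TNF response. CHUK, which encodes IKK-alpha, was at 20.9 and 14.8 FPKM with PBS and TNF in NC, at 24.3 and 19.2 in siEZH1, and at 8.29 and 20.4 in siUXT. IKBKB, which encodes IKK-beta and shares its values with a sequence record, was at 7.15 and 8.95 FPKM in NC, at 8.38 and 8.33 in siEZH1, and at 8.18 and 6.55 in siUXT. IKBKG, which encodes the scaffold NEMO, was at 9.63 and 12.1 FPKM in NC, at 6.56 and 7.78 in siEZH1, and at 7.44 and 7.68 in siUXT. CHUK was lower with TNF in NC and siEZH1 and higher in siUXT, and IKBKG was higher in all 3 pairs by at most 1.25 times. MAP3K14, which encodes NIK, the kinase of the alternative NF-kB route, was at 3.70 and 5.70 FPKM in NC, at 2.98 and 3.41 in siEZH1, and at 5.58 and 5.14 in siUXT.

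No gene of the TAK1 complex, and of the stress MAPK genes MAP2K3 alone, had a TNF difference of 1 sign in all 3 pairs. MAP3K7, which encodes TAK1, was at 9.52 and 7.73 FPKM with PBS and TNF in NC, at 11.8 and 10.4 in siEZH1, and at 6.71 and 9.53 in siUXT. TAB2, which tethers TAK1 to ubiquitin chains and shares its values with a sequence record, lay between 16.3 and 22.7 FPKM. MAPK8, which encodes JNK1, was at 13.6 and 11.0 FPKM in NC, at 15.8 and 18.8 in siEZH1, and at 12.2 and 15.6 in siUXT. For MAP3K7 and MAPK8 the sign of the TNF difference was not the same in all transfections. MAPK14, which encodes p38-alpha, was at 17.1 and 15.8 FPKM in NC, at 17.5 and 17.7 in siEZH1, and at 15.6 and 16.9 in siUXT. MAPK9, which encodes JNK2, was at 13.7 and 13.3 FPKM in NC, at 14.9 and 13.7 in siEZH1, and at 12.9 and 13.6 in siUXT. Both genes stayed within a narrow band in the 6 libraries. MAP3K5, which encodes ASK1, was the only member at least 1.5-fold lower with TNF in NC (on FPKM + 1), at 6.62 and 3.95 FPKM, where 1.98% of all loci were that much lower.

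In direction, 5 of 33 members were higher with TNF in all 3 pairs (TRAF2, TRAF3, IKBKG, MAP3K8 and MAP2K3) and 2 were lower (TRAF5 and UBE2V1), where 9.08% of all loci were higher and 11.1% lower. By transfection, the members had a median log2 difference of -0.05 (NC), 0.01 (siEZH1) and 0.07 (siUXT), against -0.02, 0.01 and -0.05 over all tested loci. At least 1.5-fold higher with TNF were 3 members in NC (TRAF3, MAP3K8 and MAP2K3), 2 in siEZH1 and 5 in siUXT, against 3.4%, 3.22% and 16.8% of all loci. In siEZH1 and siUXT, 0 members were that much lower, against 1.35% and 3.61%. The 3 that joined TRAF3 and MAP3K8 in siUXT were CHUK, UBE2D3 and SKP1. They were among the 5 members at least 1.5-fold lower in siUXT PBS than in NC PBS.

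**Figure D3:**
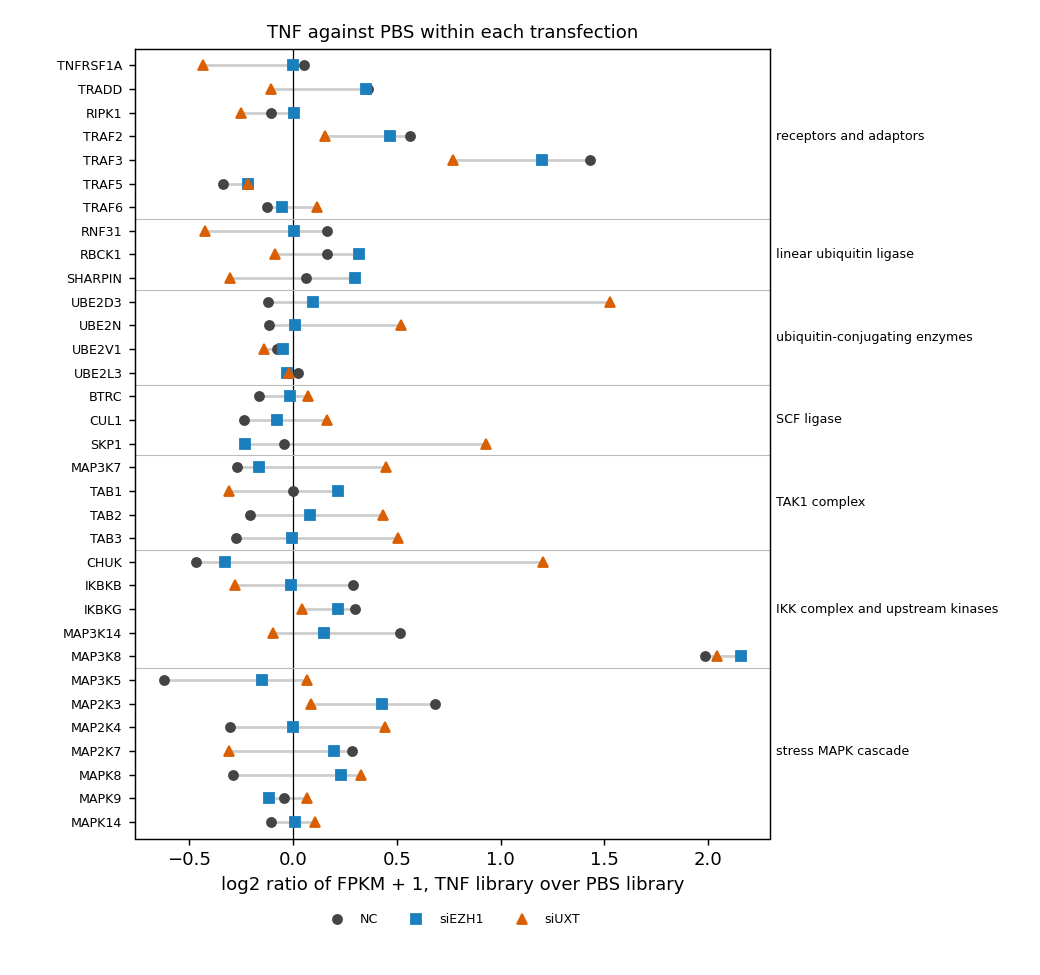
Log2 ratio of FPKM + 1 between the TNF and PBS library of each transfection (circles NC, squares siEZH1, triangles siUXT) for the 33 tested members; grey lines join the lowest and highest ratio. MAP3K8 stands near 2 and TRAF3 between 0.77 and 1.43 in the 3 transfections, and UBE2D3 and CHUK have a high siUXT point only.

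A list of 44 other genes of the same pathway was drawn up with earlier results of these data known. It includes NFKBIA, used above as a check of TNF treatment, so its calls are a description and no test of the pathway. Of the 42 tested, 6 were called higher with TNF and 0 lower in limma, where 0.405% and 0.00844% of all tested loci were. The 6 included NFKB1 and NFKB2, which encode NF-kB subunits, and the NF-kB inhibitor genes NFKBIA and TNFAIP3. The others were the IAP ligase gene BIRC3 and the AP-1 subunit gene JUN. BIRC2, the close relative of BIRC3, was at 11.8 and 29.6 FPKM with PBS and TNF in NC, 14 and 38.3 in siEZH1, and 4.38 and 36.8 in siUXT, and was not called. CYLD, a deubiquitinase gene, was at 1.91 and 4.20 FPKM in NC and was also not called. TRAF1 had a mean under 1 FPKM and was not tested.

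After siEZH1, no member passed the test, but most differed from NC in the same direction under both treatments. The 16 that were higher in both siEZH1 libraries included all 4 ubiquitin-conjugating enzymes and all 3 SCF components. The 11 that were lower included TNFRSF1A, TRADD and TRAF2 at the receptor, and IKBKG and MAP3K14 among the kinases. Over all loci, 40.7% were higher and 37.7% lower in both pairs, so members that kept a direction were about as common as loci that did.

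Among the higher ones, MAPK8 was at 15.8 FPKM in siEZH1 against 13.6 in NC under PBS, and at 18.8 against 11.0 under TNF. CUL1, the scaffold of the SCF ligase, was at 28.8 against 23.5 FPKM under PBS and at 27.2 against 19.8 under TNF. MAP3K7 was at 11.8 against 9.52 FPKM under PBS and at 10.4 against 7.73 under TNF. The siEZH1 values of all 3 lay above both NC values. Their log2 differences over both treatments were 0.46, 0.36 and 0.34, with standard errors of 0.22, 0.19 and 0.24, and limma Benjamini-Hochberg adjusted p values of 0.60, 0.61 and 0.65. These sizes moved by over 1.5 times with 1 NC library left out. Without NC TNF they were 0.18, 0.22 and 0.13, and without NC PBS 0.75, 0.50 and 0.54.

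Among the lower ones, IKBKG was at 6.56 against 9.63 FPKM under PBS and at 7.78 against 12.1 under TNF. TRADD was at 5.46 against 7.59 FPKM and at 7.24 against 10.0. MAP3K14 was at 2.98 against 3.70 FPKM and at 3.41 against 5.70. For all 3 genes both siEZH1 values lay below both NC values. The log2 differences were -0.53, -0.42 and -0.42, with limma Benjamini-Hochberg adjusted p values of 0.60, 0.61 and 0.62. The MAP3K14 difference was -0.18 without NC TNF and -0.67 without NC PBS. IKBKG has a near-identical pseudogene copy, and the sources used here do not say how reads were split between the copies.

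The number of calls for siEZH1 depended on the siUXT libraries. In the limma fit over 6 libraries, 0 of 33 members were called, where 0.0169% of loci were (0% higher, 0.0169% lower), and 1 (IKBKG) had an unadjusted p under 0.05, as had 8.21% of loci. Without siUXT PBS, limma called UBE2D3, CUL1 and SKP1 higher and TNFRSF1A, TRADD, TAB1, IKBKG and MAP2K3 lower. These 8 are 24.2% of the members, and the same fit called 26.4% of all loci (11.8% higher, 14.7% lower). Without siUXT TNF the same 8 were called, beside 26.1% of loci (11.3% higher, 14.8% lower). The share of members called was close to that of all loci in both. TAB1, a TAK1-binding activator, has values identical to those of SYNGR1, so its call cannot be given to TAB1 alone.

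In single pairs, the only members at least 1.5-fold apart were under TNF: MAPK8 higher and MAP3K14 lower, where 3.71% and 6.05% of all loci were that far apart. Under PBS no member was, against 2.13% higher and 5.15% lower over all loci. MAP3K8 with TNF was at 6.91 FPKM in siEZH1 and 6.93 in NC. The median log2 difference of the members was 0.04 under PBS and 0.05 under TNF, against 0.00 and 0.02 for all tested loci.

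**Figure D4:**
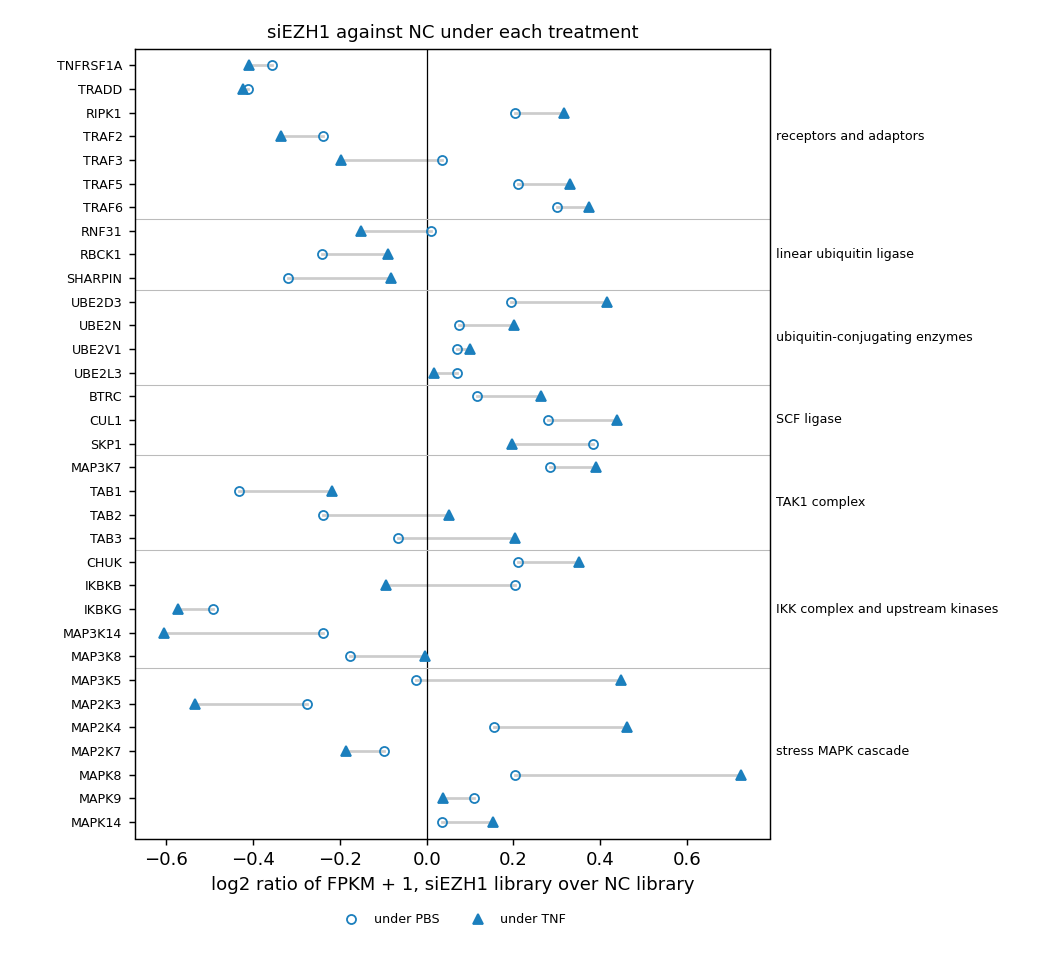
Log2 ratio of FPKM + 1 between the siEZH1 and NC library under PBS (open circles) and TNF (triangles) for the 33 tested members. The ubiquitin-conjugating enzymes and SCF components among the members lie right of 0 in both, UBE2L3 only just. IKBKG, TRADD and TNFRSF1A lie left of 0 in both.

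After siUXT, the 2 treatments gave different pictures. Under PBS, 5 members lay below NC by at least 1.5-fold (UBE2D3, CHUK, SKP1, TAB3 and UBE2N) and 0 higher, where 16.4% of all loci were lower and 4.11% higher. Under TNF only IKBKG was that much lower and 0 were higher, where 3.06% and 3.12% of loci were. The 5 members lower under PBS are 15.2% of the tested members, close to the share of all loci.

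UBE2D3, a ubiquitin-conjugating enzyme that works with many ligases including SCF, was at 126 and 115 FPKM in NC with PBS and TNF, at 144 and 154 in siEZH1, and at 46.7 and 137 in siUXT. CHUK was at 8.29 FPKM in siUXT PBS and between 14.8 and 24.3 in the other 5 libraries. SKP1, the SCF subunit that holds the F-box protein, was at 88.0 and 85.3 FPKM in NC, at 115 and 97.8 in siEZH1, and at 52.4 and 101 in siUXT. TAB3, a ubiquitin-chain-binding subunit of the TAK1 complex, was at 1.79 FPKM in siUXT PBS and between 2.76 and 3.55 elsewhere. All 4 had their lowest value in siUXT PBS, and their siUXT TNF value lay within the range of the NC and siEZH1 libraries. In FPKM, siUXT over NC was 0.372 under PBS and 1.19 under TNF for UBE2D3, and 0.397 and 1.38 for CHUK. SKP1 was at 0.596 and 1.18, and TAB3 at 0.505 and 1.07. SKP1, UBE2D3, UBE2N and UBE2L3 have processed pseudogene copies that may share their reads.

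Of the 4 ubiquitin-conjugating enzymes on the list of other pathway genes, 3 were lower in siUXT PBS than in NC PBS and 1 was higher. UBE2D1 was at 1.85 FPKM there against 7.40 in NC PBS, UBE2D2 at 12.9 against 30.9, and UBE2V2, a partner of UBE2N, at 7.0 against 21.1. CDC34, the enzyme named for its work with SCF, was at 70.4 against 52.6 FPKM. The member UBE2N, which builds the chains that the TAK1 complex binds, was at 47.9 against 73.3 FPKM. UBE2V1, its other partner, was at 98.0 and 92.7 FPKM in NC, at 103 and 99.4 in siEZH1, and at 115 and 104 in siUXT. UBE2L3 was at 54.8 in siUXT PBS against 49.8 in NC PBS, so both lay on the other side of NC. The values of UBE2V1 are identical to those of TMEM189 and their read-through gene.

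In siUXT PBS, 16 of 33 members (48.5%) were higher than in NC PBS, where 53.4% of all loci were. Of the tested receptor and adaptor genes 5 of 7 were higher, as were 3 of 3 genes of the linear ubiquitin ligase. It was 2 of 5 for the IKK complex and upstream kinases and 2 of 4 for the ubiquitin-conjugating enzymes. The TAK1 complex had 1 of 4, the SCF ligase 1 of 3 and the stress MAPK cascade 2 of 7. TRAF5 and TRAF6 were lower, at 2.54 against 2.55 and at 1.61 against 1.95 FPKM. TNFRSF1A was at 44.9 FPKM against 35.8 in NC PBS and TRADD at 10.3 against 7.59. SHARPIN and RBCK1, subunits of the linear ubiquitin ligase, were at 16.6 against 12.3 and 29.5 against 24.0 FPKM, and RNF31, its catalytic subunit, at 22.9 against 17.6. RNF31 shares its values with IRF9. MAP2K7, which encodes the JNK activator MKK7, was at 30.2 against 21.5 FPKM. These 6 genes had their highest value of the 6 libraries in siUXT PBS. Under TNF their highest ratio to NC was 1.025, for RBCK1.

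Lower under PBS but higher under TNF were 15 members, or 45.5%, where 29.2% of all loci were; the reverse held for 10 members, or 30.3%, where 30.5% of all loci did. The 15 included MAPK8, MAPK9 and MAPK14 with the kinase genes MAP3K7, MAP3K5 and MAP2K4. MAP2K4, which encodes the JNK activator MKK4, was at 11.0 FPKM in siUXT PBS and between 13.6 and 19.1 elsewhere. Only 8 members kept 1 direction under both treatments. Higher in both were RIPK1, RBCK1, SHARPIN, UBE2V1, UBE2L3 and CUL1, and lower in both were IKBKG and MAP3K8, against 22.8% and 17.1% of all loci.

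MAP3K8 was at 0.423 FPKM in siUXT against 1.00 in NC under PBS, and at 4.87 against 6.93 under TNF. IKBKG was at 7.44 against 9.63 FPKM under PBS and at 7.68 against 12.1 under TNF. MAP3K8 lay below its matched NC value in each treatment, and both siUXT values of IKBKG lay below both NC values. The log2 differences over both treatments were -0.46 for each, with a standard error of 0.20 for MAP3K8 and 0.19 for IKBKG and a limma Benjamini-Hochberg adjusted p of 0.91 for both. CUL1, RIPK1 and SHARPIN had the highest positive log2 differences of the 6, at 0.30, 0.22 and 0.22, with the same adjusted p of 0.91 for all 3 in limma (Benjamini-Hochberg). Without siUXT PBS they were 0.46, 0.12 and -0.03, and without siUXT TNF 0.14, 0.32 and 0.46. Without NC TNF the CUL1 difference was 0.16.

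In the limma fit over all 6 libraries, 0 members were called for siUXT, beside 0.0422% of loci (0.0253% higher, 0.0169% lower), and 0 had an unadjusted p under 0.05, as 3.65% of loci had. Without siUXT PBS, 0 members were called by limma, beside 1.09% of loci (0.439% higher, 0.65% lower). Without siUXT TNF, where the siUXT estimate comes from the siUXT PBS library alone, limma called 7 members: CHUK, UBE2D3, UBE2N, SKP1 and MAP2K4 lower and SHARPIN and MAP2K7 higher. That is 21.2% of the members, where 30.4% of all loci were called (12% higher, 18.4% lower). In fits that leave out a siUXT library, the lone siUXT library adds nothing to the spread. The spread then comes from how the TNF difference varies between NC and siEZH1, with 1 residual degree of freedom. It is assumed to hold for siUXT as well. The cause of the distance of siUXT PBS from the other libraries was not tested.

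**Figure D5:**
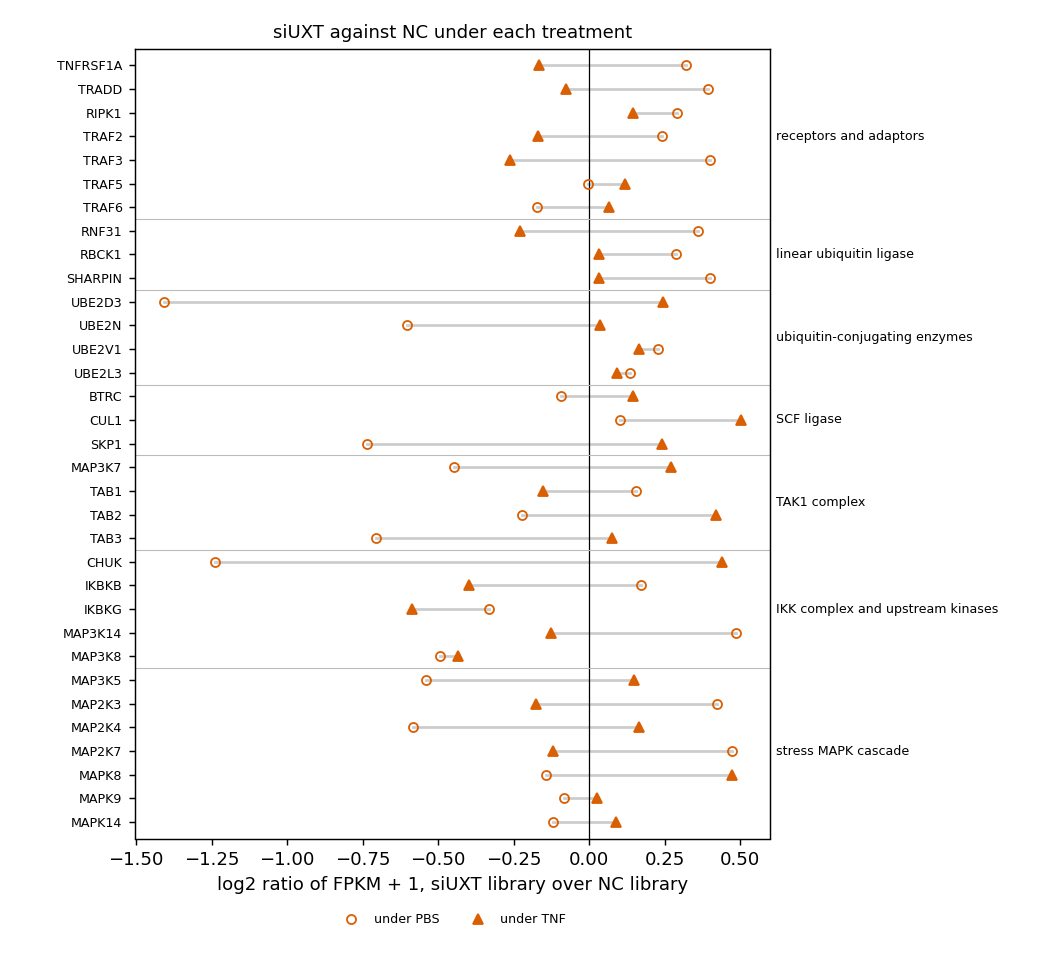
Log2 ratio of FPKM + 1 between the siUXT and NC library under PBS (open circles) and TNF (triangles) for the 33 tested members. UBE2D3 and CHUK lie below -1.2 under PBS and right of 0 under TNF, while MAP3K8 and IKBKG lie left of 0 under both.

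Of the 33 tested members, 11 stayed within 1.5 times from their lowest to their highest library, where 32.9% of all loci did. The narrowest were UBE2L3, which feeds ubiquitin to the linear ligase, at 1.10 times, MAPK14 at 1.13 and MAPK9 at 1.15. BTRC, which encodes the F-box protein beta-TrCP that binds marked IkB, spanned 1.24 times, from 7.47 to 9.29 FPKM. MAP3K8 had the widest span at 16.4 times, followed by UBE2D3 at 3.30, TRAF3 at 2.93 and CHUK at 2.93 times.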

How the data were processed

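Per the labels, RNA was enriched with oligo-dT beads. Per the submitters' processing notes, FastQC, cutadapt, TopHat2, Bowtie and SICER were used with hg19; versions, the annotation and the program behind the values: not given in the sources used here. The authors deposited FPKM values per gene symbol in 1 table per library. The 10 chromatin samples were not analysed here.

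Symbols with identical values were merged into loci. Loci whose 6 libraries averaged 1 FPKM or more were tested as log2(FPKM + 1) with limma 3.58.1 (R 4.3.3, eBayes with trend, additive in transfection and treatment, 2 residual degrees of freedom), Benjamini-Hochberg adjusted over all tested loci, threshold 0.05. Single pairs have no test; 1.5-fold is on FPKM + 1. The script was tested on simulated data. Fragment numbers per gene are not given; relative depth came from steps under 0.4 FPKM (tolerance 2%).

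Members and lists were chosen with earlier results of these data known. Values in every library were given for 13 set members, the 3 highest and lowest log2 differences of each contrast with 1 sign in every pair, and the 4 members whose siUXT to NC ratio differed most between treatments; further members were named after their values were seen. All 35 members matched the RefSeq gene table by symbol. Alternatives were pseudocount, filter, size factors, trend, model terms and libraries left out.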

Additional observations from a re-analysis of the deposited data

Results flagged for a closer look

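For 2 members, the TNF response had opposite signs in NC and siUXT and differed by at least 1 on the log2(FPKM + 1) scale. The response of CHUK was higher in siUXT than in NC by 1.68, going from -0.47 in NC to 1.21 in siUXT. The response of UBE2D3 was higher by 1.65, going from -0.12 to 1.53. Each rests on 1 pair of libraries per transfection, and the difference was not tested. Both siUXT responses use the siUXT PBS library, in which CHUK and UBE2D3 had their lowest values. The share of all loci with such a difference was not counted, so it cannot be called particular to these members. At least 1.5-fold higher with TNF were 16.8% of all loci in siUXT and 3.4% in NC. Among the other pathway genes, UBE2V2 went from -0.07 in NC to 1.85 in siUXT and UBE2D1 from -0.17 to 1.30. UBE2D2 and TBK1 also changed sign in this way.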

How the results depend on the processing

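Counts of members called depended most on which libraries were used. The share of all loci called was not worked out for fits with no transfection term, with another filter or with only the NC and siEZH1 libraries. Nor was it for single pairs at other settings. Such counts therefore cannot be read as a trait of the members. For siEZH1 without a siUXT library, the share of members called was close to that of all loci, as given above. For TNF, 1 member was called over all 6 libraries, 0 with a mean of at least 5 FPKM (MAP3K8 is then not tested), 2 with no transfection term (MAP3K8 and TRAF3), 3 with only the NC and siEZH1 libraries, and 1 to 4 when each library was left out in turn. For siEZH1 the count of 0 became 8 with only the NC and siEZH1 libraries, and 0 to 8 with each library left out; for siUXT it was 0 to 7. The median log2 change of the members, with each library left out, lay between -0.0289 and 0.0575 for TNF (0.05 over all), between 0.008 and 0.0824 for siEZH1 (0.07 over all; 0.0548 with no filter on low values) and between -0.0042 and 0.0353 for siUXT. SHARPIN reversed for siUXT, from 0.22 to -0.0274 without siUXT PBS (0.4588 without siUXT TNF). Of members at least 1.5-fold apart in single pairs, TNF in siEZH1 and siEZH1 under TNF each had 1 with a mean of at least 5 FPKM, and siUXT under PBS had 8 with a pseudocount of 0.1 FPKM; these single-pair alternatives were chosen after seeing the data. The number of fragments behind low values such as those of MAP3K8 with PBS is not given, which limits their precision.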
